A study of Mus musculus with 42 samples.

Results

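The 10 genes described here, S100a8, S100a9, Csf3r, Cd177, Retnlg, Ngp, Ltf, Camp, Elane and Mpo, encode cytosolic, surface, secreted and granule proteins of neutrophils, and they were chosen by name among the 21674 genes of a mouse RNA-seq table. They were followed through 35 libraries of carotid artery intima, the layer flushed from the inner wall of the vessel, and through 7 libraries of cultured aortic endothelial cells. In the flow experiment, male C57BL/6J mice several weeks of age had the left carotid partly ligated, and 48 hr later the ligated artery (low flow), the opposite artery (contralateral, high flow) and arteries of sham-operated mice were collected as 3 pools each. In the depletion experiment, wild-type male C57BL/6J mice of the same age had the same ligation. They received IgG, anti-GPIba (an antibody to a platelet surface glycoprotein), anti-Gr1 (a granulocyte-depleting antibody), PBS liposomes or clodronate liposomes (which are taken up by phagocytes and kill them). Low-flow intima was collected at 48 hr as 2 pools a treatment, with 2 pools of contralateral intima for IgG and for PBS liposomes. A further pool each of PBS and clodronate low-flow intima was sequenced with 100 bp reads. At 7 days, low-flow intima was taken as 3 pools each, and contralateral intima as 2 pools each, from mice with endothelial Rbfox2 deletion (Rbfox2 EC-KO: Rbfox2 lox/lox with the inducible Cre Cdh5(PAC)-CreERT2 and the reporter Rosa26-mTmG) and from control littermates that lacked Cre. These mice were of both sexes and between 2 and 7 months, not weeks, of age. Age, sex, genotype and time thus all differ between the 7 day and the 48 hr mice and cannot be told apart. The Cre is under a promoter of endothelial cells, and recombination in neutrophils was not measured. A pool held 3 to 5 arteries, the sources do not say which low-flow and contralateral pools came from the same mice, and p-values therefore measure the spread between pools. The intima flush is a mixture of cells: the endothelial markers were above 0 in every intima library (11 of 11 genes), and in such bulk RNA fewer cells of a type and less RNA per cell cannot be told apart.

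Neutrophils make their granules in sequence as they mature in the bone marrow. The primary granule proteins (Mpo, Elane) are transcribed in promyelocytes and the specific granule proteins (Ltf, Camp, Ngp) in myelocytes, and these mRNAs are low in circulating cells, whereas the alarmin pair S100a8 and S100a9 and the cytokine receptor Csf3r remain transcribed in mature neutrophils. Neutrophils roll on selectins, bind integrin ligands on activated endothelium and leave the circulation within hours.

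The genes lie at these positions in the mouse build mm9. S100a8 (chr3:90472993-90473956, plus strand) and S100a9 (chr3:90496554-90499643, minus strand) are neighbours separated by 22598 bases. Camp (chr9:109749889-109751970), Ngp (chr9:110322254-110325514) and Ltf (chr9:110921796-110945270) lie in order on chromosome 9, with 570284 bases between Camp and Ngp and 596282 bases between Ngp and Ltf. Csf3r is at chr4:125701794-125722219, Cd177 at chr7:25529004-25545330, Retnlg at chr16:48872721-48874611, Elane at chr10:79349057-79350961 and Mpo at chr11:87607083-87617915.

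Promoter sequences are shown for 4 of the 5 genes that were higher under low flow and for a pair of specific granule genes that were not, because these sets separate in the libraries below. They are from RefSeq (GRCm38.p6), which held all 10 genes, run from 250 bases before to 50 bases after the RefSeq start, and each matched exactly once in mm9, whose coordinates are given. Capitals mark GAGGAAG on either strand (CTTCCTC on the other), TTGCNNAA on either strand (TTNNGCAA on the other) and TATAAA on the gene's strand, sets of letters chosen after the sequences were read.
S100a8, chr3:90472743-90473042, plus strand: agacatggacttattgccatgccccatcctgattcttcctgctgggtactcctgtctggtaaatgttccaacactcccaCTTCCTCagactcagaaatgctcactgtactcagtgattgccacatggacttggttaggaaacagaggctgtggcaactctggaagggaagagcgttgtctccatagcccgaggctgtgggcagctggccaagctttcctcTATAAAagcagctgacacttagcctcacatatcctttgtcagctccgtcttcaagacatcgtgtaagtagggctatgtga
S100a9, chr3:90499594-90499893, minus strand: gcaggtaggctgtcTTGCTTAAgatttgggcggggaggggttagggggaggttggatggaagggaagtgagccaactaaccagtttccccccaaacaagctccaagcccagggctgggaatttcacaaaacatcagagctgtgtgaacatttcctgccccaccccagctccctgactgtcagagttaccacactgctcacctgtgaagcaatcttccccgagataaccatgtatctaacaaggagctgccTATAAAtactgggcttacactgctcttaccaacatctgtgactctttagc
Csf3r, chr4:125701653-125701952, plus strand: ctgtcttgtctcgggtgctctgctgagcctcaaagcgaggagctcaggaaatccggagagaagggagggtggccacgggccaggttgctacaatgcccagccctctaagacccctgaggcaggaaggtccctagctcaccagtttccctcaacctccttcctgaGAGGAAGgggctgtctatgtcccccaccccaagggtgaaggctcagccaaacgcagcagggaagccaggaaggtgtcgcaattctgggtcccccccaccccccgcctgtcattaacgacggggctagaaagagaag
Retnlg, chr16:48872471-48872770, plus strand: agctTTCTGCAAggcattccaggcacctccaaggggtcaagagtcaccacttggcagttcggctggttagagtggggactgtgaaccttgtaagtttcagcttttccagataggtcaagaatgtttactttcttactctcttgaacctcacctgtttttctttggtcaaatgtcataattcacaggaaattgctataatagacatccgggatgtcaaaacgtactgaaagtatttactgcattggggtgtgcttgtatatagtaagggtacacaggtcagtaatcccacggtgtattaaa
Ngp, chr9:110322062-110322361, plus strand: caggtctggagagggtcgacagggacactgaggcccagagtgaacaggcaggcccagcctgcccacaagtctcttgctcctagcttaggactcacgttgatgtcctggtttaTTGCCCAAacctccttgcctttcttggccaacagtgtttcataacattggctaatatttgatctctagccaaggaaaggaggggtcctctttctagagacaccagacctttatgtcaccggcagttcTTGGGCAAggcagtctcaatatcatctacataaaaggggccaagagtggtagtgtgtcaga
Ltf, chr9:110921546-110921845, plus strand: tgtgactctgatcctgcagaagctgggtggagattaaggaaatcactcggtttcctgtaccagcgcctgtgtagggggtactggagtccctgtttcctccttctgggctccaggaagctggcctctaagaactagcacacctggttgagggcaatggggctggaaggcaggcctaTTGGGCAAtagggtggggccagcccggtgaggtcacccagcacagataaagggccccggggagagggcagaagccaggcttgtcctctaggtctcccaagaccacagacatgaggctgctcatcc

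GAGGAAG, a purine-rich run of the kind bound by ETS factors, was in 4 of 10 promoters (S100a8, Csf3r, Elane and Mpo) and in 13.6% of all 32851 RefSeq promoters of the same length. TTGCNNAA, letters shared with many C/EBP sites, was in 4 of 10 (S100a9, Retnlg, Ngp and Ltf) and in 10.8% of all promoters. TATAAA was in 3 of 10 (S100a8, S100a9 and Cd177) and in 8.32% of all promoters. In S100a8 the TATAAA began 30 bases before the start and the CTTCCTC 171 bases before it. The TATAAA of S100a9 began at the RefSeq start itself, and that of Cd177 40 bases before the start. Ngp held TTGCNNAA matches that began 138 and 11 bases before the start, and Ltf held one 75 bases before it. Because the letters were chosen after these promoters were read, the shares are a description and no enrichment was tested. A match describes letters only and names no bound site.

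Levels are given as FPKM, expected counts scaled to effective transcript length in kilobases and to the library total. The libraries held 4064477 to 6794904 counts in the flow experiment, 12286104 to 19035957 in the depletion experiment and 10318685 to 18633538 at 7 days, so that 1 count of a low gene weighs more in the flow experiment. A difference was called at an adjusted p under 0.05 in edgeR's quasi-likelihood test over all genes tested. The median change over all genes was between -0.07 and 0.07 on the log2 scale in every comparison.

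At 48 hr the alarmins, both surface genes and Retnlg stood far higher in low-flow intima than in contralateral or sham intima. S100a8, which pairs with S100a9 to form calprotectin, was at 359.6, 768 and 259 FPKM in the 3 low-flow pools, at 10.4, 12.5 and 10.6 in the contralateral pools, and at 17.2, 4.95 and 38.7 in the sham pools. S100a9, its partner, was at 142, 319 and 154 FPKM under low flow, at 6.13, 14.3 and 3.20 in contralateral intima and at 5.51, 5.00 and 24.4 in sham intima. All low-flow pools were above all others for both genes, and the third sham pool was the highest of the sham pools for both.

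Csf3r, the receptor for granulocyte colony-stimulating factor, was at 11.5, 22.7 and 16.3 FPKM under low flow against 0.0727, 0.356 and 0.205 in contralateral intima and 0.294, 0.381 and 2.03 in sham intima. Cd177, a glycosyl-phosphatidylinositol-anchored neutrophil surface protein, was at 3.15, 7.97 and 5.67 FPKM under low flow, at 0 in all 3 contralateral pools and at 0.0922, 0 and 0.319 in sham pools. Retnlg, a secreted resistin-like protein of myeloid cells, was at 24.5, 64.6 and 38.3 FPKM under low flow, 5.07, 2.48 and 3.33 in contralateral intima and 3.58, 2.66 and 12.4 in sham intima. As with the alarmins, no low-flow pool overlapped another group.

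Of the 10 genes, 5 passed the filter on low counts in low versus high flow, and all 5 were called higher, where 46.2% of the genes tested were called. The same 5 did not overlap between the groups, nor did 27.7% of all genes tested in that direction. Passing the filter through the low-flow pools alone is enough to bring such a gene into the test, so these counts are a description. The fitted log2 difference was 6.25 ± 0.64 for S100a8 (SE, n = 3 pools a group, adjusted p = 2.6e-05), 5.46 ± 0.61 for S100a9, 6.95 ± 0.53 for Csf3r and 4.34 ± 0.54 for Retnlg. As a ratio of mean FPKM, S100a8 was 41.3-fold, S100a9 26.0-fold, Csf3r 79.8-fold and Retnlg 11.7-fold higher. Cd177 was at least 23.2-fold higher when each contralateral library is set at 3 counts.

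Against sham, the same 5 genes passed the filter and were called higher, with a background of 40.3%, and none overlapped, against 26.6% of all genes tested. Here too the low-flow pools alone can bring a gene past the filter, so these counts are a description. The log2 difference was 5.41 ± 0.81 for S100a8 (adjusted p = 0.00225), 4.96 ± 0.72 for S100a9, 5.91 ± 0.73 for Cd177, 4.97 ± 0.66 for Csf3r and 3.51 ± 0.64 for Retnlg. High flow against sham tested only S100a8 and Ngp among the 10. The log2 differences of -0.84 ± 0.59 (S100a8) and -1.33 ± 0.84 (Ngp) were not called, nor was any gene in the table (0% of 11030 by edgeR, with 868 at an unadjusted p under 0.05 and 101 called by DESeq2).

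**Figure D1:**
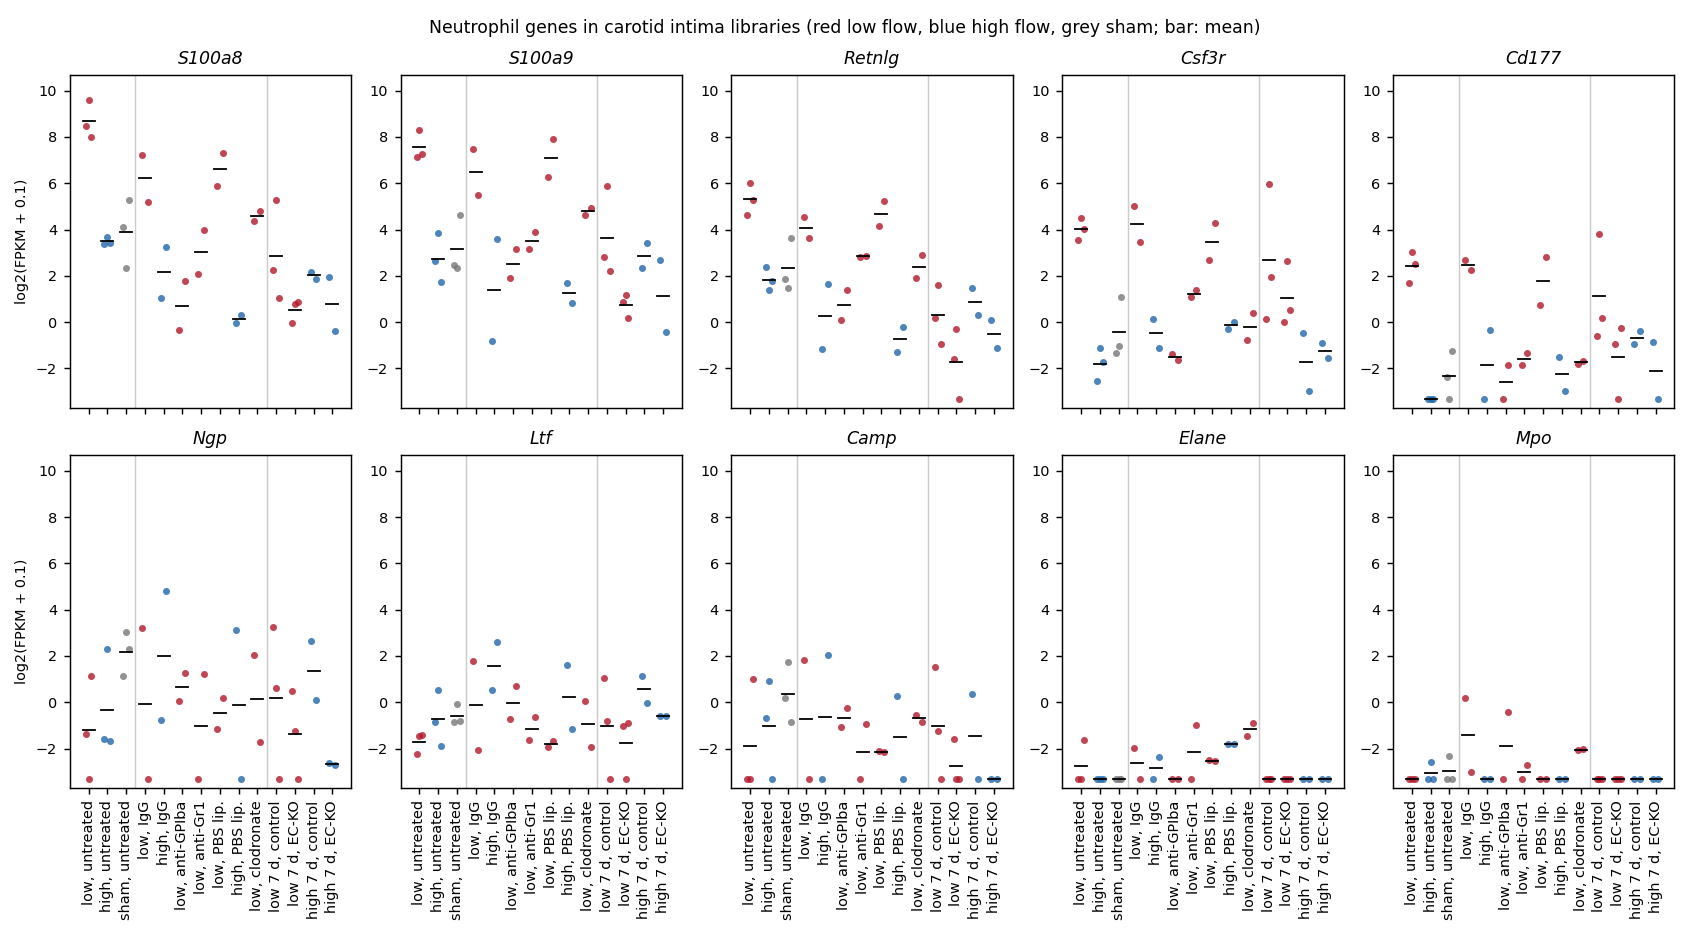
Level of each of the 10 genes, log2(FPKM + 0.1), in the carotid intima libraries by group, without the 100 bp liposome pair. Points are pools coloured by flow (red low, blue high, grey sham) and bars are means of the plotted values. The low-flow pools without a depleting agent at 48 hr stand above the contralateral pools of the same treatment for S100a8, S100a9, Csf3r, Cd177 and Retnlg, while Ngp, Ltf and Camp scatter within groups and Elane and Mpo lie mostly at the lowest value plotted.

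The difference between the arteries was measured again in the depletion experiment, in the 2 control treatments. With IgG, S100a8 was at 151 and 36.7 FPKM in the low-flow pools against 1.96 and 9.45 in the contralateral pools, S100a9 at 177 and 44.5 against 0.473 and 11.9, and Csf3r at 32.3 and 11.1 against 1.01 and 0.364. Cd177 was at 6.26 and 4.66 against 0 and 0.686, and Retnlg at 22.9 and 12.4 against 0.351 and 3.01. The first low-flow IgG pool was the higher of the pair for all 5 genes. The low-flow pools were above the contralateral pools for these 5 and for Mpo, as for 40% of all genes tested. Mpo had 41 counts and 1 count in the low-flow pools, the latter under the 3 counts told from 0, and 0 in the contralateral pools. Of 9 members tested, these 5 were called higher (background 40.5%), with log2 differences of 3.91 ± 1.00 for S100a8 (n = 2 pools a group, adjusted p = 0.0109), 4.02 ± 1.07 for S100a9, 4.90 ± 0.76 for Csf3r, 3.26 ± 0.86 for Retnlg and 3.85 ± 1.36 for Cd177 (adjusted p = 0.0423). Without the first low-flow IgG pool only Csf3r was called, without the first contralateral IgG pool only S100a9 and Csf3r, and without the second low-flow IgG pool Cd177 was not.

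With PBS liposomes, S100a8 was at 59.0 and 159 FPKM in low-flow pools against 0.871 and 1.14 in contralateral pools, S100a9 at 76.7 and 239 against 3.14 and 1.65, and Retnlg at 17.7 and 37.4 against 0.312 and 0.766. Csf3r was at 6.31 and 19.1 against 0.716 and 0.902, and Cd177 at 1.57 and 6.97 against 0.253 and 0.0276. The second low-flow pool was the higher for all 5. The low-flow pools were above the contralateral pools for these 5 (40% of all genes tested were) and below them for Ltf (35.1%). Again 5 of 9 members tested were called higher (background 35%), with log2 differences from 4.08 ± 0.73 for Csf3r to 6.82 ± 1.21 for S100a8. Cd177 (5.00 ± 1.48, adjusted p = 0.0229) was not called without the second low-flow pool (adjusted p = 0.154) or without the first or the second contralateral pool (0.0701 and 0.110). In both control treatments the file header names read files of an earlier date for the low-flow than for the contralateral libraries, so flow and this date cannot be told apart here.

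The ratio of the alarmins to the surface genes differed between experiments, on the FPKM scale and for libraries with at least 20 counts of both genes. S100a9 was at 0.40 to 0.63 times S100a8 in the flow and 100 bp libraries and at 0.94 to 1.51 times S100a8 in the 150 bp libraries. S100a8 was at 31.2, 33.8 and 15.9 times Csf3r in the untreated low-flow pools, at 4.66 and 3.32 times in low-flow IgG pools and at 9.35 and 8.33 times in low-flow PBS pools. Experiment, read length and run cannot be told apart in these ratios, and the differences in ratio were not tested.

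In low-flow intima from mice given anti-GPIba, the 5 flow-linked genes were lower than with IgG. S100a8 was at 0.683 and 3.34 FPKM, against 151 and 36.7 with IgG. S100a9 was at 3.62 and 8.83, Csf3r at 0.281 and 0.223, Cd177 at 0 and 0.172 and Retnlg at 0.978 and 2.51. Every anti-GPIba pool lay below both IgG pools for these genes. Of 9 members tested, 5 were called lower (background 16.5%) and the same 5 did not overlap (39.4% of all genes tested in that direction). The fitted log2 change was -6.44 ± 0.82 for Csf3r (adjusted p = 0.00595), -5.95 ± 1.54 for Cd177 (adjusted p = 0.0333), -5.53 ± 1.10 for S100a8 (adjusted p = 0.0211), -4.17 ± 1.07 for S100a9 (adjusted p = 0.0322) and -3.35 ± 0.85 for Retnlg (adjusted p = 0.0318). As ratios of mean FPKM, IgG was 86.2-fold above anti-GPIba for Csf3r, 46.6-fold for S100a8 and 10.1-fold for Retnlg. These calls rest on each library: without the first IgG pool Csf3r alone was called, without the second S100a8 and Csf3r, and without either anti-GPIba pool none.

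With anti-Gr1, S100a8 was at 4.10 and 15.6 FPKM, S100a9 at 8.72 and 14.6, Csf3r at 2.02 and 2.48, Cd177 at 0.176 and 0.297 and Retnlg at 6.97 and 7.13. All of these lay below both IgG pools, as did 29.2% of all genes tested. By edgeR none of the 9 members tested was called, and no gene in the table was (0%), with 4 members and 2432 genes at an unadjusted p under 0.05. DESeq2 called 142 genes, among them 3 members (S100a8, Cd177 and Csf3r). The log2 change was -3.20 ± 0.96 for S100a8, -3.21 ± 1.02 for S100a9, -4.49 ± 1.41 for Cd177 and -3.24 ± 0.69 for Csf3r, each with an adjusted p of 0.243, and -1.30 ± 0.77 for Retnlg (adjusted p = 0.378). Retnlg was thus at 2.5-fold less than with IgG, against 9.52-fold for S100a8 and 23.1-fold for Cd177. Whether Retnlg changed less than the others was not tested.

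Anti-GPIba and anti-Gr1 share the IgG pools, so the agents were also compared with each other. S100a8, Cd177, Csf3r and Retnlg were lower with anti-GPIba than with anti-Gr1 in both pools (21.9% of all genes tested were), S100a9 overlapped, and edgeR called none of 9 members and no gene (0%, with 3 members and 1409 genes at an unadjusted p under 0.05 and 354 genes by DESeq2, including Csf3r). Of the 4 genes that were lower, Csf3r differed most, -3.20 ± 0.74 (adjusted p = 0.142).

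With clodronate liposomes, S100a8 was at 20.7 and 27.5 FPKM and S100a9 at 24.7 and 30.5, against 59.0 and 159 and 76.7 and 239 with PBS liposomes. Csf3r was at 0.477 and 1.22, Cd177 at 0.182 and 0.215 and Retnlg at 3.61 and 7.30. The clodronate pools were below both PBS pools for all 5 genes (26.7% of all genes tested were) and above them for Mpo and Camp (23.9%), at 3 to 5 counts against 0 or 1. EdgeR called none of 9 members, where 0.119% of genes were called. At an unadjusted p under 0.05 were 5 members and 2002 of the 13401 genes tested. DESeq2 called 2 members, Cd177 and Csf3r. The log2 change was -4.00 ± 0.72 for Csf3r (adjusted p = 0.0640), -4.50 ± 1.43 for Cd177 (adjusted p = 0.230), -2.43 ± 0.80 for Retnlg, -2.62 ± 0.98 for S100a9 and -2.27 ± 0.91 for S100a8 (adjusted p = 0.295).

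The single pools sequenced with 100 bp reads gave differences of the same direction. S100a8 was at 466 FPKM with PBS and 147 with clodronate, S100a9 at 290.1 and 76.7, Csf3r at 12.5 and 1.21, Retnlg at 81.0 and 25.6, and Cd177 at 4.69 and 0. As a ratio of mean FPKM, PBS was 3.17-fold above clodronate for S100a8 and 10.3-fold for Csf3r. With these libraries added to the fit Csf3r was called (adjusted p = 0.00595). S100a8 was at 43.5 and 22.5 times Csf3r in the 150 bp clodronate pools, against 9.35 and 8.33 times in the PBS pools, and at 122 times against 37.5 times in the 100 bp pair.

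**Figure D2:**
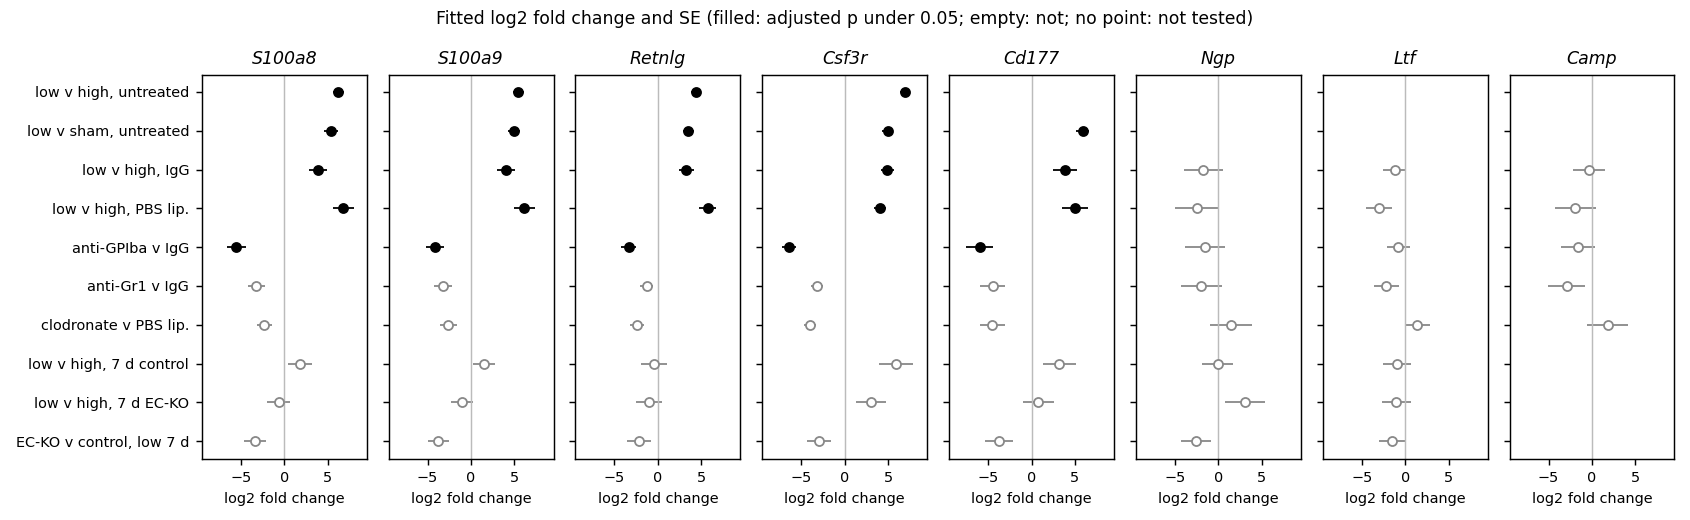
Fitted log2 fold change of 8 of the 10 genes in 10 comparisons, with the standard error as bars. Filled points have an adjusted p under 0.05, and Cd177 in low versus high flow without treatment is left out because it was at 0 in every contralateral pool. Filled points stand to the right in the 3 low versus high flow comparisons and the comparison with sham at 48 hr, and to the left for anti-GPIba, for S100a8, S100a9, Csf3r, Cd177 and Retnlg.

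At 7 days 1 pool stood out. S100a8 was at 4.61, 38.6 and 1.95 FPKM in the low-flow control pools (numbered 1, 4 and 5 in the table) and at 4.37 and 3.57 in contralateral control pools. S100a9 was at 7.00, 58.2 and 4.50 against 4.93 and 10.6, and Retnlg at 1.04, 2.98 and 0.418 against 2.64 and 1.15. Csf3r was at 0.990, 62.4 and 3.78 against 0.631 and 0.0275, and Cd177 at 0.563, 14.1 and 1.02 against 0.423 and 0.657. Low-flow control pool 4 was the highest of the 7 day libraries for all 5 genes and above every 48 hr intima library for Csf3r and Cd177, with 2774 counts of Csf3r, 498 of Cd177, 276 of S100a9 and 132 of S100a8, and its S100a8 to Csf3r ratio was 0.618. It alone of the 7 day libraries had 20 counts or more of both genes, the limit for a ratio here. Low-flow control pool 5 and low-flow EC-KO pools 1 and 4, at 4 to 5 counts of S100a8, also had less S100a8 than Csf3r in FPKM.

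None of the 7 members tested was called in low versus high flow of the 7 day controls, where 2.4% of genes were called, and 1, Csf3r, was at an unadjusted p under 0.05. The Csf3r log2 difference was 5.95 ± 1.97 (n = 3 and 2 pools, adjusted p = 0.102). Csf3r was called by DESeq2, with the replicate number as a block (adjusted p = 0.00508) and without low-flow control pool 1. Without low-flow control pool 4 the Csf3r difference was 2.78 ± 1.36 and was not called (adjusted p = 0.316). In Rbfox2 EC-KO intima, Csf3r was at 0.898, 6.06 and 1.34 FPKM under low flow against 0.431 and 0.241, a log2 difference of 3.05 ± 1.73 (adjusted p = 0.425, and 0.0418 with the replicate block). None of the 7 members was called there, with a background of 1.09%.

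Between genotypes under low flow, S100a8 was at 0.863, 1.63 and 1.74 FPKM in Rbfox2 EC-KO pools and S100a9 at 1.71, 2.12 and 1.05, below all 3 control pools, as for 3.59% of all genes tested. Cd177 was at 0.418, 0 and 0.729 FPKM and Retnlg at 0.232, 0.701 and 0, and both overlapped the controls. No member and no gene was called by edgeR (0%), with 3 members (S100a8, S100a9 and Cd177) and 880 genes at an unadjusted p under 0.05 and 11 genes by DESeq2. The log2 change was -3.78 ± 1.19 for S100a9, -3.36 ± 1.27 for S100a8, -3.74 ± 1.65 for Cd177 and -2.97 ± 1.40 for Csf3r, each with an adjusted p of 0.692. Without low-flow control pool 4 these values were -1.78 for S100a9, -1.19 for S100a8, -1.06 for Cd177 and 0.23 for Csf3r. Whether pools of equal number belong together is not stated in the sources. Deviations from the group mean correlated between genotypes at equal numbers, but unequal numbers were not compared. Both pools numbered 1 also share an earlier read-file date. Within numbers 1, 4 and 5 the EC-KO pool was below the control pool each time for S100a8, S100a9, Cd177, Retnlg and Csf3r. Some differences were small (Csf3r at 0.898 against 0.990 FPKM in number 1). With the number as a block the changes were -3.09 ± 1.07 for S100a9, -2.57 ± 1.19 for S100a8, -2.19 ± 1.72 for Cd177 and -1.80 ± 0.67 for Csf3r, with adjusted p of 0.444 to 0.607. Without pool 4 of both genotypes, an alternative chosen after seeing the data, they were -2.03 ± 1.19 for S100a9, -1.33 ± 1.31 for S100a8, -0.49 ± 1.48 for Cd177 and -1.13 ± 1.17 for Csf3r, each with an adjusted p of 0.999. The low-flow pools numbered 1 have read files of an earlier date in the file header than the other 7 day libraries. Without low-flow control pool 1, 1476 genes were called and still no member (S100a9 at -4.22 ± 1.18, adjusted p = 0.0508, and S100a8 at -3.80 ± 1.30, adjusted p = 0.0895). Without pool 1 of both genotypes, an alternative chosen after seeing the data, 374 genes and no member were called, with S100a9 at -4.25 ± 1.48 (adjusted p = 0.135).

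In contralateral intima S100a8 was at 3.82 and 0.671 FPKM in the EC-KO pools and Csf3r at 0.431 and 0.241, and no member was called between genotypes (background 0.00749%). Both EC-KO pools lay below both control pools in FPKM for Retnlg, Ngp and Ltf, and S100a8 overlapped. In TMM-scaled CPM, the scale of the shares over all genes, S100a8 did not overlap either, as for 17.7% of all genes tested. The median log2 change of the 7 members tested was -1.36 against 0.02 over all genes. Ngp alone was at an unadjusted p under 0.05. The interaction of deletion and flow called no member and no gene by edgeR (0%, with 538 genes at an unadjusted p under 0.05, none of them a member, and 19 genes by DESeq2).

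No low-flow rise was called for the specific granule genes. Ngp, a cathelin-related granule protein, was at 0.289, 0 and 2.07 FPKM in untreated low-flow pools, 0.231, 4.84 and 0.217 in contralateral pools and 2.10, 8.22 and 4.83 in sham pools. Ltf, the iron-binding lactotransferrin, was at 0.113, 0.260 and 0.270 under low flow, 0.452, 1.33 and 0.170 in contralateral and 0.456, 0.852 and 0.473 in sham intima. The highest Ngp value was in the second sham pool, where it exceeded S100a8 and S100a9. Low-flow and contralateral pools overlapped for both genes. In FPKM all low-flow pools lay below all sham pools, from counts of 12 or fewer under low flow. The nearest Ngp values were 2.07 and 2.10 FPKM. Of all genes tested 30% were lower without overlap, but neither gene passed the filter there, so that share does not cover them.

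In the depletion experiment Ngp was at 9.13 and 0 FPKM with IgG under low flow and at 0.480 and 27.5 in the contralateral pools, and Ltf at 3.36 and 0.142 against 1.35 and 6.02. Camp, the cathelicidin precursor, was at 3.47 and 0 against 0 and 4.03. One pool of each pair held most of the reads: the second contralateral IgG pool had 381 counts of Ngp, 213 of Ltf and 25 of Camp, and the first low-flow IgG pool 153, 144 and 26. With PBS liposomes Ngp was at 0.350 and 1.05 under low flow against 8.59 and 0, and with the depleting agents at 0.947 and 2.28 (anti-GPIba), 0 and 2.25 (anti-Gr1), and 4.01 and 0.204 (clodronate).

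At 7 days Ngp was at 9.31, 1.43 and 0 FPKM in the low-flow controls, 6.14 and 0.961 in the contralateral controls, 1.32, 0.319 and 0 in the low-flow EC-KO and 0.0622 and 0.0547 in the contralateral EC-KO pools. Low-flow control pool 1, not pool 4, held the most counts, with 157 of Ngp, 84 of Ltf and 21 of Camp. In FPKM a contralateral control pool had more Ltf, 2.12 against 1.95. No specific granule gene was called by edgeR in any of the 14 comparisons with the filter and all libraries. In the low versus sham comparison Ngp did not pass the filter. Ngp was called lower there by edgeR with no filter (-2.04 ± 0.65, adjusted p = 0.0306), by edgeR without the third low-flow pool or the first sham pool, and by DESeq2, opposite in direction to the 5 flow-linked genes. DESeq2 also called Ltf lower in low than in high flow with PBS liposomes, where the edgeR value was -3.01 ± 1.48 (adjusted p = 0.133).

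**Figure D3:**
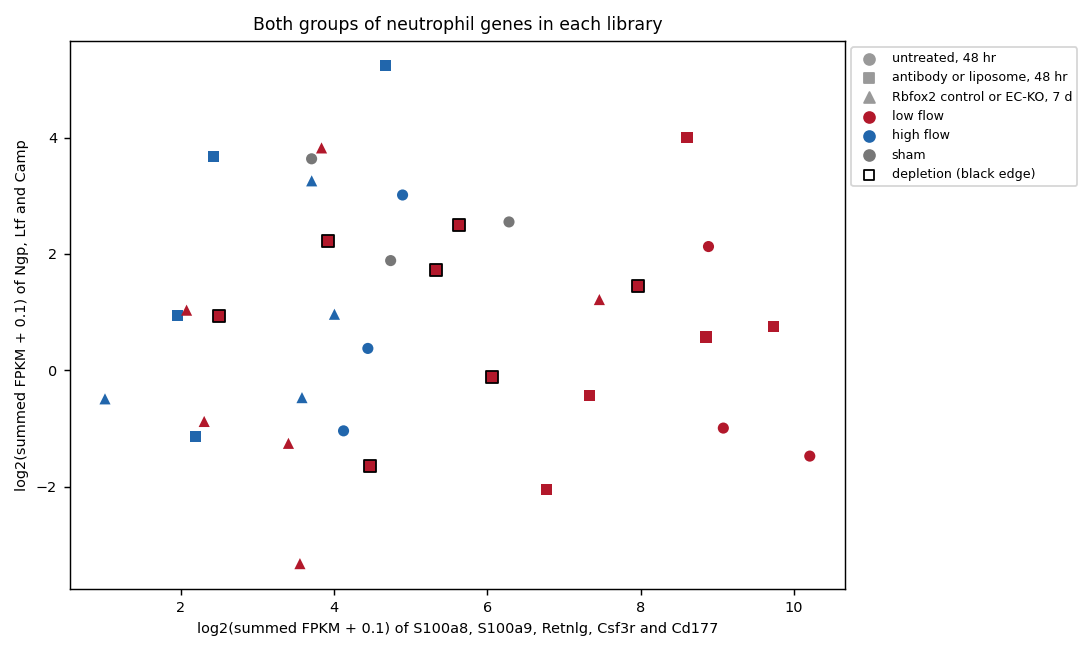
Log2(summed FPKM + 0.1) of S100a8, S100a9, Csf3r, Cd177 and Retnlg on the horizontal axis against that of Ngp, Ltf and Camp on the vertical axis, 1 point for each of 35 intima libraries. Red is low flow, blue high flow and grey sham, circles are untreated, squares antibody or liposome and triangles 7 day libraries, and black edges mark a depleting agent. The low-flow IgG pools, with summed FPKM of 389 and 109 for the first set, have 15.96 and 0.142 for the second.

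The primary granule genes were near 0 in intima. Elane, neutrophil elastase, had 0 to 5 counts in every intima library, at most 0.445 FPKM. Mpo, myeloperoxidase, had 0 to 5 counts in all intima libraries except the first low-flow IgG pool (41 counts, 1.04 FPKM) and the second anti-GPIba pool (28 counts, 0.645 FPKM). At 7 days both genes were at 0 in all 10 libraries. A count of 3 is taken as the lowest level told from 0, a limit of counting error only, and Elane passed the filter in no comparison.

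Of the 7 culture libraries, 1 held a set of granule transcripts. The line is a mouse aortic endothelial line with a doxycycline-controlled SV40 antigen, cultured here without doxycycline, and it received 10% plasma, platelets, bone marrow-derived monocytes from which Ly6G+ cells had been removed, alone or together as named below, for 48 hr, with 1 library a condition and thus no test. With plasma, platelets and macrophages together it had 135 counts of Mpo (3.43 FPKM), 70 of Elane (5.50 FPKM), 27 of Ltf, 23 of Ngp, 16 of S100a8, 14 of S100a9, 14 of Cd177, 4 of Csf3r, 3 of Retnlg and 1 of Camp. Elane and Mpo were thus higher in this library than in any intima library, while S100a8 at 3.92 FPKM was below the 48 hr low-flow pools without a depleting agent.

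The line with platelets and macrophages, but no plasma, had 4 counts of Csf3r, 3 of Retnlg, 3 of Ltf, 2 of S100a9 and 1 of S100a8, and 0 of the other 5 genes. The line without addition had 6 counts of Ltf and none of the other 9 genes, and with plasma alone 2 of Ltf. Sorted primary aortic endothelial cells had 1 count of Csf3r (eGFP+ cells), 2 of Csf3r and 1 of Ngp (Rbfox2 control) and none (Rbfox2 EC-KO). These libraries held 4989843 to 16394043 counts, so absence from a culture means fewer than about 3 counts at that depth.

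**Figure D4:**
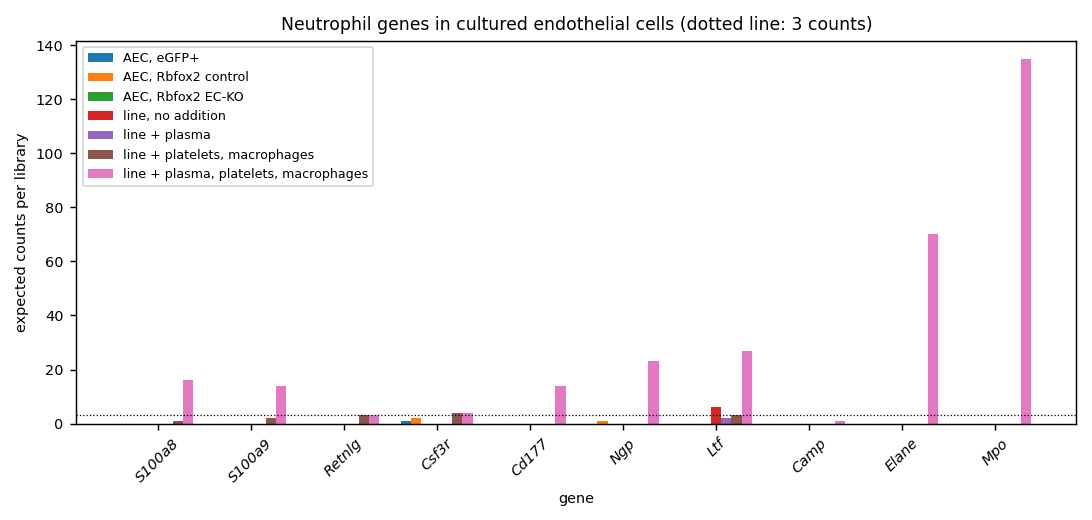
Counts of the 10 genes in the 7 cultured endothelial libraries, with the dotted line at 3 counts. The line with plasma, platelets and macrophages reaches 135 counts of Mpo and 70 of Elane, and the other 6 libraries have 6 counts or fewer of every gene.

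Across the 35 intima libraries the genes fell into sets by Pearson correlation of log2(FPKM + 0.1), given as a description because the libraries share experiments, depth and treatment. S100a8 and S100a9 had r = 0.94, S100a8 and Retnlg 0.93 and Csf3r and Cd177 0.81. Ngp and Camp had 0.86 and Ngp and Ltf 0.71. Between the sets the values were small or negative: 0.09 for S100a8 and Ngp and -0.37 for Csf3r and Ltf.

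Within experiments, S100a8 and S100a9 had r = 0.97 in the 9 flow libraries, 0.93 in the 14 depletion libraries and 0.94 in the 10 libraries at 7 days. Ngp and Camp had 0.84, 0.91 and 0.90. S100a8 and Csf3r had 0.96, 0.79 and 0.57, the last being the experiment with the Csf3r-rich control pool 4. Against the mean of the other detected members the correlation was 0.87 for S100a9, 0.79 for S100a8, 0.75 for Retnlg, 0.62 for Cd177, 0.53 for Csf3r, 0.29 for Camp, 0.28 for Ngp and 0.00 for Ltf.

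**Figure D5:**
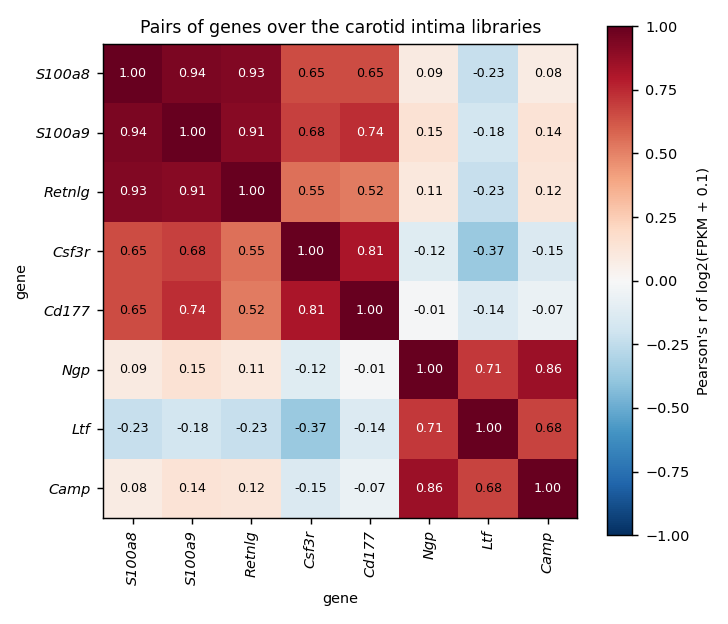
Pearson correlation of log2(FPKM + 0.1) between 8 of the 10 genes over 35 intima libraries, from red (positive) to blue (negative). S100a8, S100a9, Retnlg, Cd177 and Csf3r form a block with values of 0.52 to 0.94, and Ngp, Camp and Ltf a second block with values of 0.68 to 0.86.

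Outside the 10, the genes whose level was most like the mean of the 8 detected members over those 35 libraries, among 12602 genes, were Chi3l1 (r = 0.85), Clec4d (0.83), Ifitm1 (0.82), Ptafr (0.81), Mmp8 (0.81), F10 (0.80), Gm5483 (0.79), Il1f9 (0.79), Slpi (0.79) and Trem1 (0.78). Mmp8 is a neutrophil collagenase, Ptafr the receptor of platelet-activating factor, Slpi a secreted inhibitor of leukocyte proteases and Trem1 and Clec4d are receptors of myeloid cells. With a pseudocount of 1 in place of 0.1, 7 of these 10 were again among the 10 most alike, and over the 21 low-flow libraries alone 6 were.

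A list of 39 further neutrophil genes in the table was read beside the 10. It is not confined to neutrophils. Its summed level was 1108 CPM (counts scaled to the library total) in sorted eGFP+ endothelial cells and 1130 CPM in the line without addition. Untreated intima had 634 to 1890 CPM in contralateral and 3379 to 4898 CPM in low-flow pools. In untreated low versus high flow, 21 of the 23 tested were called higher and none lower (46.2% of all genes were called), with a median log2 difference of 5.36 against -0.07 over all genes. The other 16 did not pass the filter on low counts, which the low-flow pools alone can satisfy, so the count and median hold only for the genes that passed. Il1r2, the decoy receptor of interleukin 1, rose by 9.08 ± 0.61 on the log2 scale, Il1b, the cytokine, by 7.19 ± 0.40, Trem1 by 7.12 ± 0.55 and Chi3l3, a chitinase-like protein, by 6.95 ± 0.45. Cxcr2, the receptor for neutrophil-attracting CXC chemokines, rose by 6.82 ± 0.44. With anti-GPIba 19 of 28 were called lower (median -4.14, background 16.5%), including Il1r2 at -8.07 ± 0.97, Cxcr2 at -7.80 ± 1.31 and Il1b at -7.64 ± 1.05, and Trem1 was at 0 in both anti-GPIba pools. Far fewer genes of the whole table were called with any of these pools left out, so the anti-GPIba calls of every list rest on each library. With anti-Gr1 none was called (background 0%), and 11 were at an unadjusted p under 0.05 (median -2.35, or -2.10 with 1 gene at its bound), as were 2432 of the 13401 genes tested. With clodronate 2 were called lower (background 0.119%), Chi3l3 at -3.85 ± 0.51 and Itgb2, an integrin chain of all leukocytes, at -3.00 ± 0.40. At an unadjusted p under 0.05 were 16 of the list (median -2.91) and 2002 of the 13401 genes tested. A fit of these 2 groups alone called 0 genes. At 7 days 1 of 25 was called higher in controls (Cybb), against 2.4% of all genes, and 2 in EC-KO (Cybb and Chi3l3), against 1.09%. In the controls 24 of 25 were positive (median 3.28, or 3.10 with 3 genes at their bound). At an unadjusted p under 0.05 were 16 of the list and 3332 of 13352 genes. In the EC-KO 19 were positive and 6 negative (median 2.51), with 7 of the list and 2099 genes at an unadjusted p under 0.05.

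Among 16 genes for neutrophil ligands and adhesion, 5 of the 11 tested were called higher and 1 lower in untreated low versus high flow, against 46.2% called over all genes. Cxcl5, a CXCR2 ligand, rose by 5.13 ± 0.67, Sele, the selectin of activated endothelium, by 4.17 ± 0.34 and Selplg, the leukocyte ligand of selectins, by 5.38 ± 0.43. Cxcl2 rose by 1.78 ± 0.25, Icam2 fell by 1.27 on the log2 scale, and Cxcl1 was at -0.15 ± 0.24 (adjusted p = 0.615). Csf3, the ligand of Csf3r, had 0 to 8 counts in the untreated low-flow pools. In the depletion experiment Csf3 was at 0.819 to 1.44 FPKM with IgG and at 2.00 to 2.16 with PBS liposomes, and at 0 in the contralateral pools of both. Csf3 was also at 0 in both anti-GPIba pools, where it was called lower, and at 0.511 to 2.03 FPKM with anti-Gr1. With anti-GPIba Selplg fell by 4.49 on the log2 scale, Cxcl3, another CXCR2 ligand, was called lower at 0 in both pools against 9 to 107 counts with IgG, and Icam1, an adhesion ligand of integrins, rose by 1.07 ± 0.32.

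Monocytes and macrophages also express several of these genes, and their markers moved with the members at 48 hr in low versus high flow and against sham, with anti-GPIba and with clodronate. With anti-Gr1 the median log2 change of the macrophage and monocyte list was -0.29 against -3.20 for the members tested, and between genotypes under low flow it was 0.65 against -2.97. Of the 15 macrophage and monocyte genes in the table, 10 of 13 tested were called higher in untreated low versus high flow, led by Msr1 (5.24 ± 0.35), Ccr2 (5.16 ± 0.37), Csf1r (5.02 ± 0.32) and Cd68 (4.75 ± 0.25), where 46.2% of all genes were called, and the summed level of the list was 368 to 802 CPM (counts scaled to the library total) in low-flow, 69.7 to 126.5 in contralateral and 126 to 248 in sham pools. The summed level of the 10 neutrophil genes was 196 to 425, 6.61 to 19.7 and 12.8 to 37.5. In the depletion experiment the macrophage sum was 715 to 838 with IgG, 199 to 203 with anti-GPIba and 669 to 754 with anti-Gr1, while the sum of the 10 was 78.3 to 252, 5.21 to 14.4 and 14.8 to 25.3. Csf1r, the receptor that defines the lineage, was at 41.1 to 47.3 FPKM with IgG and 23.7 to 26.6 with anti-Gr1 (log2 change -0.80 ± 0.53, adjusted p = 0.421). With anti-GPIba 7 of the 15 were called lower (background 16.5%), led by Ccr2 (-4.72 ± 0.96), Ly6c2 (-4.20 ± 0.82), Csf1r (-3.89 ± 0.59) and Fcgr1 (-3.22 ± 0.72). As for the neutrophil list, these calls rest on each library.

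With PBS and clodronate liposomes the macrophage sum was 368 to 561 and 117 to 149, and the sum of the 10 was 74.6 to 221 and 24.6 to 26.7. Of the 15, 2 were called lower with clodronate, where 0.119% of all genes were called (Cd14 at -3.97 ± 0.53 and Csf1r at -3.78 ± 0.60). At an unadjusted p under 0.05 were 12 of the 15 and 2002 of the 13401 genes tested. The clodronate calls depend on the fit: with these 2 groups alone 0 genes were called, and leaving out a library changed the number of calls widely. Csf1r was above 0 in every intima library. At 7 days the macrophage sum was 191 to 959 in low-flow controls and 723 to 1202 in low-flow EC-KO pools, while the sum of the 10 was 17.1 to 272 and 7.35 to 21.3.

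Of the other lists, the 10 platelet genes summed to 35.04 to 40.5 CPM with IgG, 23.1 to 28.9 with anti-GPIba and 37.9 to 55.8 with anti-Gr1. Single platelet genes moved further than the sum with anti-GPIba: 8 of 9 tested were negative, with a median of -2.23, or -1.13 with the 3 genes at 0 in a group at their bound. Ppbp, a platelet chemokine precursor, was called lower (-4.49 ± 0.93), as was Tubb1, at 0 in both pools against 11 and 12 counts with IgG, while Gp1ba rose by 1.39 ± 0.38. In untreated low versus high flow, where 46.2% of all genes tested were called, 1 of 5 platelet genes tested was called lower (Gp1ba, -1.27 ± 0.25). The same share applies to the erythroid, fat, smooth muscle and endothelial counts that follow, and the smooth muscle and endothelial counts lie near it. Erythroid genes were called lower for 4 of 5, Hbb-b2 (-2.36 ± 0.48), Hba-a2, Hba-a1 and Alas2, and reads of the near-identical globin copies may be split between them. Fat genes were called lower for 4 of 4, Ucp1, Cidea, Adipoq and Fabp4 (-3.17 ± 0.73), the first 3 at 4 counts or fewer in every low-flow pool. Smooth muscle genes were called higher for 2 of 4, Acta2 (3.62 ± 0.40) and Tagln (2.48 ± 0.30). Of 11 endothelial genes, Kdr (2.49 ± 0.35) and Emcn (2.14 ± 0.33) were called higher and Vwf (-1.54 ± 0.29), Cldn5 (-1.53 ± 0.24), Tek (-1.36 ± 0.28) and Nos3 (-1.29 ± 0.21) lower. No lymphocyte gene passed the filter there. With anti-GPIba, where 16.5% of all genes were called, 2 of 6 smooth muscle genes were called lower (Acta2 at -2.90 ± 0.66 and Tagln at -1.58 ± 0.48). The summed level of the 6 was 623 to 905 CPM against 4177 to 4464 with IgG. The 11 endothelial genes summed to 11020 to 11160 CPM with anti-GPIba and 8374 to 9826 with anti-Gr1, against 4589 to 6184 with IgG. Of the 11, 2 (Pecam1 and Tek) were called higher with anti-GPIba, near the share of 16.5% over all genes. The part of these other cell types in the members' results was not tested.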

How the data were processed

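RNA of 42 samples was sequenced, 35 of them carotid intima. The deposited table holds expected counts that the authors made per gene with RSEM 1.2.15, and the submitters' processing notes also name STAR 2.5.1b and mm9. Where the methods describe the flow libraries they name TopHat instead, and which aligner made these columns is not settled here. Per the file headers the untreated pools have a pair of sequencing runs as technical replicates, of which the first was used. Their labels name 80 bp and 100 bp reads, while the columns name 100 bp for both runs. At 7 days the columns marked as a repeat were used for low-flow control pool 5 and low-flow EC-KO pool 4. Of 204 value columns, 160 were not used. Expected counts were rounded to whole numbers and tested with edgeR 4.0.16 (R 4.3.3) by the quasi-likelihood test, with filterByExpr, TMM scaling and Benjamini-Hochberg adjustment over all genes tested, over the 2 groups compared in the flow experiment and over all groups of the experiment for the depletions and at 7 days. FPKM was computed from the deposited expected counts, effective lengths and library totals, with a floor of 3 counts. Shares of all genes without overlap between groups were counted on TMM-scaled CPM. DESeq2 1.42.0, other scalings, no filter, a replicate block and leaving out each library were alternatives. Python 3.11.15, pandas 2.3.3, numpy 2.4.6 and matplotlib 3.10.9 were used for the rest.

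The 10 genes and the 9 lists beside them were chosen with earlier results of these data known. The genes named are the 10 in every comparison, the called genes of each list with the largest change (at most 4 a direction) in untreated low versus high flow and in the depletions, the 10 genes most alike in pattern, and Cxcr2, Csf3, Cxcl1, Cxcl2 and Cxcl5. Cybb was named after its values were seen, as a count of 5 or fewer. Ly6g was not analysed here.

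The test was tested on simulated counts with 200 genes changed by 2 on the log2 scale. It recovered 193 in low versus high flow (11236 genes), 113 in anti-Gr1 versus IgG (13401 genes) and 131 in Rbfox2 EC-KO versus control under low flow (13352 genes). In the same runs it also called 21, 7 and 11 genes that had not been changed. At 7 days, deviations of low-flow pools from their group mean correlated between genotypes at equal numbers (0.489, 0.17 and 0.272 for numbers 1, 4 and 5). Unequal numbers were not compared, and equal numbers of low-flow clodronate and contralateral PBS pools had 0.443. Whether the number marks a pairing is thus not settled. A fit with the number as a block is given as an alternative where it changes a call.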

Additional observations from a re-analysis of the deposited data

Results flagged for a closer look

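The culture libraries enter none of the comparisons, and 9 values in them stood above the line without addition and over 3 counts. The line given plasma, platelets and macrophages had 135 counts of Mpo, 70 of Elane, 27 of Ltf, 23 of Ngp, 16 of S100a8, 14 of S100a9, 14 of Cd177 and 4 of Csf3r. The line given platelets and macrophages had 4 counts of Csf3r. Each condition was 1 library, so these values have no replicate check.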

How the results depend on the processing

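The number of the 10 genes called was 5 in untreated low versus high flow under every library left out, 5 to 6 against sham, where the sixth is Ngp, called lower, 1 to 5 with IgG, 4 to 5 with PBS liposomes, 0 to 2 for anti-GPIba, 0 to 1 for clodronate and 0 to 1 in the 7 day controls, and it was 0 in the other comparisons. For anti-Gr1, DESeq2 called 3 and a fit of these 2 groups alone called 2. For clodronate, DESeq2 called 2, no filter called 1 and adding the 100 bp libraries called 1. For anti-GPIba against anti-Gr1 and for low versus high flow of the 7 day controls DESeq2 called 1. The replicate block called 1 in low versus high flow of the 7 day controls and 1 in the 7 day EC-KO, Csf3r in both, and no paired analysis was possible in the flow experiment because its pools carry letters. The depletion pools share only a number, and their block left the 5 calls of the IgG, PBS and anti-GPIba comparisons in number. Csf3r changed sign between genotypes. In low flow (-2.97) leaving out each library gave -4.32 to 0.23 and in the interaction (-2.90) -6.38 to 0.26, both positive without low-flow control pool 4, while without pool 4 of both genotypes they were -1.13 and -1.10. In high flow (-0.07) it gave -0.94 to 3.41, positive without contralateral control pool 4 and, at 0.27, without contralateral EC-KO pool 5, and the block gave 0.66. The cause of these changes was not tested. Over all genes, DESeq2 called 2187 and the block 2940 in the 7 day controls against 320 by edgeR, 948 and 1317 against 146 in the EC-KO, 467 and 64 against 16 with clodronate, and 27 and 4 against 1 between genotypes in high flow. Without both low-flow pools numbered 1, chosen after seeing the data, 1 member (Csf3r) and 3840 genes were called in the 7 day controls, 1100 genes in the EC-KO and 374 against 0 between genotypes under low flow, where leaving out low-flow control pool 1 alone gave 1476. Without both pools numbered 4, also chosen after seeing the data, the counts were 34, 67 and 0, with no member called. DESeq2 called 3659 against 2216 for anti-GPIba, and for anti-GPIba against anti-Gr1 the block called 4 genes against 0. The second sequencing run and the sum of both runs were not run, since the lettered pools allow 1 column a sample. Low counts limit Elane, Mpo and Camp.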
